A study of Mus musculus with 1 sample.

Results

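The genes described here serve the uptake of lipoprotein cholesterol, its transit through endosomes, its release in the lysosome and its storage as ester. They were chosen as 9 named genes, Lrp1, Scarb1, Rabgef1, Rab5a, Rab7, Lipa, Npc2, Npc1 and Soat1, and all 9 were among the 32285 genes of the count table. The counts came from subcutaneous MC38 tumors, formed by a mouse colon adenocarcinoma cell line in C57BL/6J hosts, the same strain as the line. The library was labelled as wild type, and the study's methods describe its cells as MC38 carrying a control shRNA (shNTC), from 5 tumors mixed in equal proportions. The tumors were dissociated, red blood cells were lysed, and single cells were captured in droplets by the 10x Genomics 3' v3.1 method, which counts each captured transcript as a unique molecular identifier (UMI). This pool was 1 library without a map from cells to mice, so the data held no replicates and no test between samples. The knockdown pool was not analysed here.

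Cells take in lipoproteins through receptors at the surface and deliver them to early endosomes, which carry the small GTPase Rab5. Rabgef1, also known as Rabex-5, is an exchange factor that loads Rab5 with GTP, and Rab7 replaces Rab5 as endosomes mature and fuse with lysosomes. There the acid lipase Lipa hydrolyses cholesteryl esters, the soluble protein Npc2 hands the free cholesterol to the membrane protein Npc1, and Npc1 passes it out of the lysosome. In the endoplasmic reticulum Soat1 (ACAT1) esterifies cholesterol again for storage in lipid droplets. Macrophages are known for taking up lipoproteins and cell debris and for storing cholesteryl ester, and tumor cells draw on exogenous cholesterol for membranes.

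In the GRCm38 genome, by the GENCODE M21 annotation, all 9 were protein-coding genes. Lrp1 lay at chr10:127538161-127621148, Scarb1 at chr5:125277087-125341094, Npc2 at chr12:84754562-84773152, Lipa at chr19:34492318-34527474, Soat1 at chr1:156424525-156474331 and Rab7 at chr6:87999106-88045270, each on the minus strand. Rab5a at chr17:53479234-53507680 and Rabgef1 at chr5:130171798-130214342 lay on the plus strand. RefSeq promoters of build GRCm38.p6, from 250 bases before to 50 bases after a transcription start, were matched for 7 of the 9 genes. The promoters of Npc2 (chr12:84773063-84773362, minus strand) and Lrp1 (chr10:127621099-127621398, minus strand) are shown because these genes had the largest ratios between macrophages and tumor cells, and that of Rab5a (chr17:53478984-53479283, plus strand) because its level differed least. They are written 5′ to 3′ on the strand of the gene, and capitals mark the matches of the motifs searched.
Npc2: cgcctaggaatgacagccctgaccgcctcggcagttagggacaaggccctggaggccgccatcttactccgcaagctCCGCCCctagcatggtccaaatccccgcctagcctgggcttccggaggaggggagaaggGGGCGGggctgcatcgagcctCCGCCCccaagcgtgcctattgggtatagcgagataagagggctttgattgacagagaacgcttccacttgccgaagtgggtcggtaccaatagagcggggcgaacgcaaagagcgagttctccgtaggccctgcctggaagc
Lrp1: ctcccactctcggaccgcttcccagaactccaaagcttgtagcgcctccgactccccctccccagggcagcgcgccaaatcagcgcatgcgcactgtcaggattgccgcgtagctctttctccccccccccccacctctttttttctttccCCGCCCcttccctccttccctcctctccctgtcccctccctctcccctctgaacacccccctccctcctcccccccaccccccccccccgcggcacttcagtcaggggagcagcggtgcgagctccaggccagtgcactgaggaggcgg
Rab5a: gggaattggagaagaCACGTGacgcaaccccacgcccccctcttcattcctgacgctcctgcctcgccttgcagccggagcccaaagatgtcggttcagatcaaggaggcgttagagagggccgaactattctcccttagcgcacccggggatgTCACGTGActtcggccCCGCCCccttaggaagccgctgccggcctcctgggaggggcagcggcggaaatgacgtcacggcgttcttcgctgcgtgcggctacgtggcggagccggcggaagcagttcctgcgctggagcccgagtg

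The motifs, read on both strands, were the E-box CACGTG and its longer form TCACGTGA, to which the lysosomal regulator TFEB and related factors bind, the sterol regulatory element TCACCCCA, the PU.1 motif GAGGAAGT and the GC box GGGCGG. Of all 32851 promoters of this length, 7.15% held the E-box, 0.974% the longer form, 1.56% the sterol regulatory element, 3.2% the PU.1 motif and 35.7% the GC box. The GC box was found in promoters of all 7 genes, with 3 copies in Npc2 and 1 each in Lrp1 and Rab5a. The E-box was found in Rab5a alone among the 7, with copies starting 235 and 95 bases before the transcription start, of which the latter lay within a TCACGTGA. The letters of the sterol regulatory element and of the PU.1 motif were not in these windows. These matches are a description of the letters and were not tested as binding sites.

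After filters, 4468 of 5307 called cells were kept, and groups were rebuilt from marker genes. They were 1866 tumor-like, 1525 macrophage-like, 219 monocyte-like, 161 T and NK-like and 53 CAF-like cells (cancer-associated fibroblasts), with 41 DC-like cells (dendritic cells) and 603 cells left without a name. The level of a gene in a group is given as UMIs of the gene for every 1000000 UMIs that the cells of the group held together (CPM), with an exact 95% Poisson interval, and a ratio of levels has an exact 95% interval. All intervals cover counting error only. Tumor-like cells carried a median of 37954.5 UMIs, against 9022 in macrophage-like, 4329 in monocyte-like, 4169 in T and NK-like and 5169 in CAF-like cells. The tumor gene Rhox5 stood at 693 CPM in tumor-like cells and the macrophage gene C1qa at 7696 CPM in macrophage-like cells. The tumor-like name rests on Rhox5, Shisal2b, Hmga2, Igf2bp2 and Igf2bp3, raised over myeloid-like cells in each tumor-like cluster. Other genes of that marker list were near absent, with 0 UMIs of Krt18, 6 of Krt8, 24 of Krt7 and 1 of Epcam in tumor-like cells. Cd24a was lower there than in macrophage-like cells (0.0779 against 2.17 CPM). Cdkn2a was lower than in T and NK-like cells (6.35 against 26.1 CPM). RNA of other cells was present in each group, since Rhox5 reached 6.32% of its tumor-like level in macrophage-like, 8.05% in T and NK-like and 9.21% in monocyte-like cells, and C1qa in tumor-like cells 0.437% of its macrophage-like level. In CAF-like cells Rhox5 was at 15.1%, but 27 of its 53 UMIs came from 1 cell, and Shisal2b was at 2.72%. The CAF-like name rests on 9 raised markers, among them Col3a1, Col1a1 and Pdgfra, with UMIs in 48, 47 and 20 of the 53 cells. Dcn, also on the marker list, was not raised, at 1851 CPM against 1752 CPM in tumor-like cells. None of the 10 leading genes of the cluster was a raised marker. Of these, Higd1b, Lmod1, Notch3, Tagln, Actc1 and Kcnj8 are known from mural and smooth muscle cells. The rest were Sfrp4, P4ha3, Bmper and Ccn5. Higd1b had 238 CPM in 11 cells and Notch3 88.6 CPM in 8 cells, so the cluster is read here as collagen-rich cells with a mural share whose part in the CAF-like values was not tested. This group was not found with a limit of 10% mitochondrial UMIs or a minimum of 500 genes.

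Lrp1 is a large endocytic receptor for apolipoprotein E-rich remnants, proteases and many other ligands. Its level was 551 CPM (489 to 620) in CAF-like cells, 212 CPM (204 to 219) in macrophage-like cells, 204 CPM (179 to 232) in monocyte-like cells, 53.1 CPM (51.5 to 54.8) in tumor-like cells and 14.9 CPM (7.69 to 26) in T and NK-like cells. The CAF-like interval lay above and the T and NK-like interval below all others, and the macrophage-like and monocyte-like intervals overlapped. Scarb1 (SR-BI) takes up cholesteryl ester from HDL selectively, without degradation of the particle. Among the 5 groups it was the 1 gene of the 9 with its highest level in tumor-like cells, at 35.9 CPM (34.6 to 37.3). The host groups had 18.5 CPM (11.6 to 28) in monocyte-like, 14.2 CPM (12.4 to 16.3) in macrophage-like, 13.8 CPM (5.54 to 28.4) in CAF-like and 11.2 CPM (5.11 to 21.2) in T and NK-like cells, and the intervals of these 4 groups overlapped. A shallow cluster of 74 cells left without a name, in which the vessel genes Pecam1, Cdh5 and Kdr were raised, had 167 CPM of Scarb1 (105 to 253) from 22 UMIs.

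The endosomal Rab genes differed less between groups. Rabgef1 was counted at 8.64 CPM (7.99 to 9.32) in tumor-like cells and at 15.1 CPM (13.2 to 17.2) in macrophage-like, 17.6 CPM (10.9 to 27) in monocyte-like, 14.9 CPM (7.69 to 26) in T and NK-like and 15.8 CPM (6.8 to 31) in CAF-like cells. The T and NK-like and CAF-like values rested on 12 and 8 UMIs and their intervals reached the tumor-like one. Rab5a, its target GTPase, had 49.6 CPM (48 to 51.2) in tumor-like, 57.7 CPM (53.9 to 61.7) in macrophage-like, 47.9 CPM (36.3 to 62.1) in monocyte-like, 69.5 CPM (52.5 to 90.2) in T and NK-like and 53.2 CPM (35 to 77.3) in CAF-like cells. Of the 9 genes it was the only 1 whose highest level, by point value, was in T and NK-like cells. Rab7 had 161 CPM (154 to 167) in macrophage-like and 167 CPM (145 to 192) in monocyte-like cells, against 103 CPM (101 to 105) in tumor-like, 114 CPM (86.7 to 148) in CAF-like and 84.4 CPM (65.5 to 107) in T and NK-like cells. The myeloid pair overlapped, as did the other 3 groups, and the CAF-like interval also reached the monocyte-like one.

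The lysosomal genes were highest in myeloid cells, to unequal extents. Npc2 had 1740 CPM (1666 to 1816) in monocyte-like, 1631 CPM (1610 to 1652) in macrophage-like, 467 CPM (409 to 530) in CAF-like, 328 CPM (289 to 370) in T and NK-like and 247 CPM (244 to 251) in tumor-like cells. No 2 of these 5 intervals overlapped. Npc1, the partner of Npc2 in the limiting membrane, lies at chr18:12189692-12236400 on the minus strand. It had 45.5 CPM (42.1 to 49.1) in macrophage-like, 22.7 CPM (15 to 33) in monocyte-like, 21.7 CPM (10.8 to 38.8) in CAF-like, 15.2 CPM (14.4 to 16.1) in tumor-like and 9.93 CPM (4.29 to 19.6) in T and NK-like cells. Only the macrophage-like interval stood clear of all others. Lipa had 110 CPM (105 to 115) in macrophage-like, 59.6 CPM (57.9 to 61.3) in tumor-like, 53.8 CPM (41.4 to 68.7) in monocyte-like, 37.4 CPM (22.5 to 58.4) in CAF-like and 18.6 CPM (10.4 to 30.7) in T and NK-like cells. Here tumor-like and monocyte-like cells overlapped.

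Soat1, which makes the stored ester, followed a similar order. Its level was 103 CPM (98.3 to 109) in macrophage-like, 63 CPM (49.6 to 79) in monocyte-like, 49.2 CPM (47.6 to 50.8) in tumor-like, 33.5 CPM (22.1 to 48.7) in T and NK-like and 21.7 CPM (10.8 to 38.8) in CAF-like cells. The macrophage-like level stood above those of the other 4 groups, and the monocyte-like and tumor-like intervals overlapped.

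**Figure D1:**
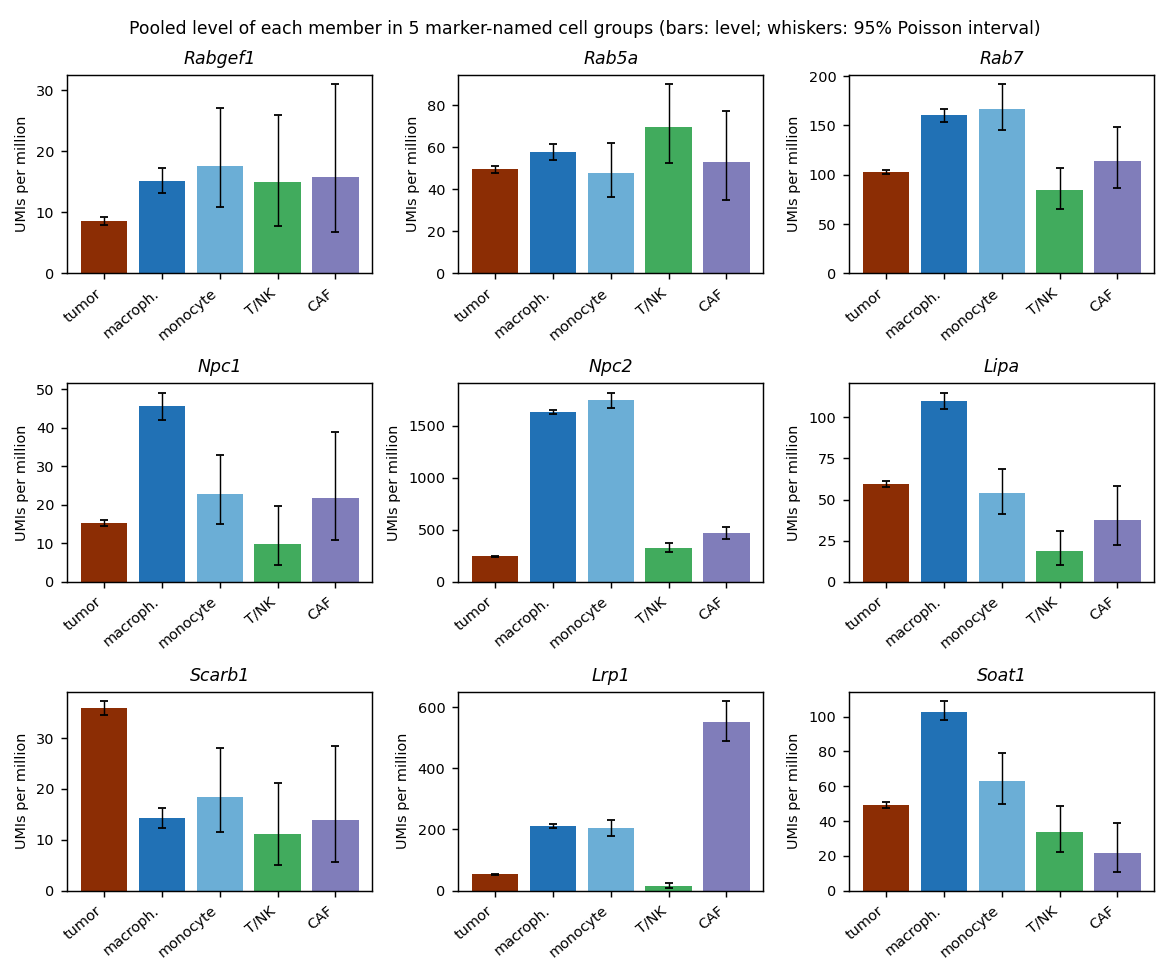
Level of each of the 9 genes (UMIs per 1000000 UMIs, linear axis from 0) in the 5 marker-named cell groups of 1 library. Bars give the pooled level and whiskers the exact 95% Poisson interval. Npc1, Lipa and Soat1 are highest in macrophage-like cells and Npc2 in monocyte-like cells, Scarb1 is highest in tumor-like cells (35.9 CPM) and Lrp1 in CAF-like cells (551 CPM).

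Against tumor-like cells, macrophage-like cells had more Npc2 (6.6-fold, 6.47 to 6.72), Lrp1 (3.98-fold, 3.8 to 4.17), Npc1 (2.98-fold, 2.71 to 3.28) and Soat1 (2.1-fold, 1.98 to 2.23). Scarb1 was lower, at a ratio of 0.396 (0.343 to 0.456). The ratios of Lipa (1.84, 1.74 to 1.95), Rabgef1 (1.75, 1.5 to 2.04), Rab7 (1.56, 1.49 to 1.63) and Rab5a (1.16, 1.08 to 1.25) stayed under 2-fold, with intervals above 1. So 4 of 9 genes were at least 2-fold higher and 1 at least 2-fold lower, where 20.4% and 27.8% of 13082 genes with at least 5 expected UMIs in both groups passed the same fold in each direction. The median log2 ratio of the 9 genes was 0.88, and that of all 13082 genes was -0.25. The Soat1 ratio was 1.99 without the tumor-like cluster of low mitochondrial content described below and 1.94 with groups taken from single markers. With those single-marker groups the ratio of Scarb1 was 0.954 and that of Lipa 3.26. They left out cells with markers of several groups and kept 198 tumor-like cells, against 1866 in the main grouping. Median-of-ratios scaling put Lipa at 2.12 and Rabgef1 at 2.01, and thinning put Rabgef1 at 2.07, each past 2-fold.

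Monocyte-like cells resembled macrophage-like cells in Npc2 and Lrp1 but not in every gene. Their marker Ly6c2 stood at 1440 CPM against 36.1 CPM in macrophage-like cells. They also held the macrophage genes C1qa and C1qb at 30.9% and 43.7% of their macrophage-like levels. The part of macrophage RNA in the monocyte-like levels was not tested. Against tumor-like cells the ratios were 7.04 (6.72 to 7.36) for Npc2, 3.84 (3.36 to 4.37) for Lrp1 and 2.04 (1.26 to 3.15) for Rabgef1, the last from 21 UMIs. These 3 genes were at least 2-fold higher and none of the 9 was at least 2-fold lower, against 12% and 32.4% of 9319 genes. Scarb1 was just short of the fold at 0.514 (0.322 to 0.78), and its ratio lay at or below 0.5 in 9 of 16 alternative settings and at 1.09 with single markers. The ratio of Rabgef1 fell below 2-fold in 4 of 16. The ratios of Lipa (0.903, 0.694 to 1.15) and Npc1 (1.49, 0.977 to 2.18) had intervals that included 1. The median log2 ratio was 0.57 for the 9 genes and -0.48 for all genes compared.

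Set directly against monocyte-like cells, macrophage-like cells had more Lipa (2.04-fold, 1.59 to 2.66), Npc1 (2-fold, 1.37 to 3.06) and Soat1 (1.64-fold, 1.3 to 2.1). Lrp1 (1.04, 0.909 to 1.19) and Rab7 (0.96, 0.831 to 1.12) had intervals around 1, and Npc2 was slightly lower in macrophage-like cells (0.938, 0.896 to 0.981). Lipa and Npc1 were the 2 of 9 genes at least 2-fold higher and none was at least 2-fold lower, beside 9.61% and 1.82% of 9384 genes. Both lay close to the fold: Npc1 was under it in 6 of 15 alternative settings, with a lowest ratio of 1.43, and Lipa in 5 of 15, with a lowest ratio of 1.76.

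T and NK-like cells had the lowest levels of several genes. Their ratios to tumor-like cells were 0.28 (0.145 to 0.49) for Lrp1, 0.311 (0.142 to 0.591) for Scarb1 and 0.312 (0.175 to 0.516) for Lipa, from 12, 9 and 15 UMIs. So 3 of 9 genes were at least 2-fold lower and none was at least 2-fold higher, against 26.7% and 11% of 8403 genes. Npc2 (1.32, 1.17 to 1.5) and Rab5a (1.4, 1.06 to 1.82) lay above the tumor-like level, and the intervals of Rabgef1 (1.72, 0.886 to 3.03), Rab7 (0.82, 0.636 to 1.04) and Npc1 (0.651, 0.28 to 1.29) included 1. The tumor genes Rhox5 and Shisal2b stood at 8.05% and 13.7% of their tumor-like levels in these cells, and the part of such free RNA in these levels was not tested. Over 17 alternative settings, an ambient profile subtracted among them, the Lrp1 ratio ranged from 0.204 to 0.401. The Lipa ratio was 0.71 and the Rabgef1 ratio 4.37 with each cell thinned to 1000 UMIs, and the Scarb1 ratio was 0.642 when each cell's CPM was averaged. After thinning, Lipa was seen in only 6 and Rabgef1 in only 4 of 130 T and NK-like cells, with 31 shallower cells left out.

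The CAF-like cells had 10.4-fold more Lrp1 than tumor-like cells (9.16 to 11.7), from 280 UMIs spread over 66% of the 53 cells, with 24 UMIs in the cell that held most. Scarb1 (0.383, 0.154 to 0.791) and Soat1 (0.441, 0.22 to 0.789) were lower. Of the 8 genes that reached 5 expected UMIs in both groups, 1 was at least 2-fold higher and 2 were at least 2-fold lower, beside 12.4% and 15% of 7130 genes. Rabgef1 did not reach that minimum. The ratio of Npc2 was 1.89 (1.65 to 2.15) and passed 2-fold in 7 of 15 alternative settings but was 0.979 after thinning, whereas Rab5a (1.07, 0.706 to 1.56), Rab7 (1.11, 0.842 to 1.44) and Npc1 (1.42, 0.707 to 2.55) had intervals that included 1. Scarb1 and Soat1 rested on 7 and 11 UMIs. The Lrp1 ratio was 2.35 in groups taken from single markers and reached 14.2 with pathway genes among the variable genes. In the single-marker groups, 550 cells with Col5a1 stood for fibroblasts and 198 cells counted as tumor-like. Col5a1 also stood at 152 CPM in the main tumor-like cells, so the 550 cells can include tumor cells. The 4 comparisons against tumor-like cells share those cells, so their ratios are not independent of each other.

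**Figure D2:**
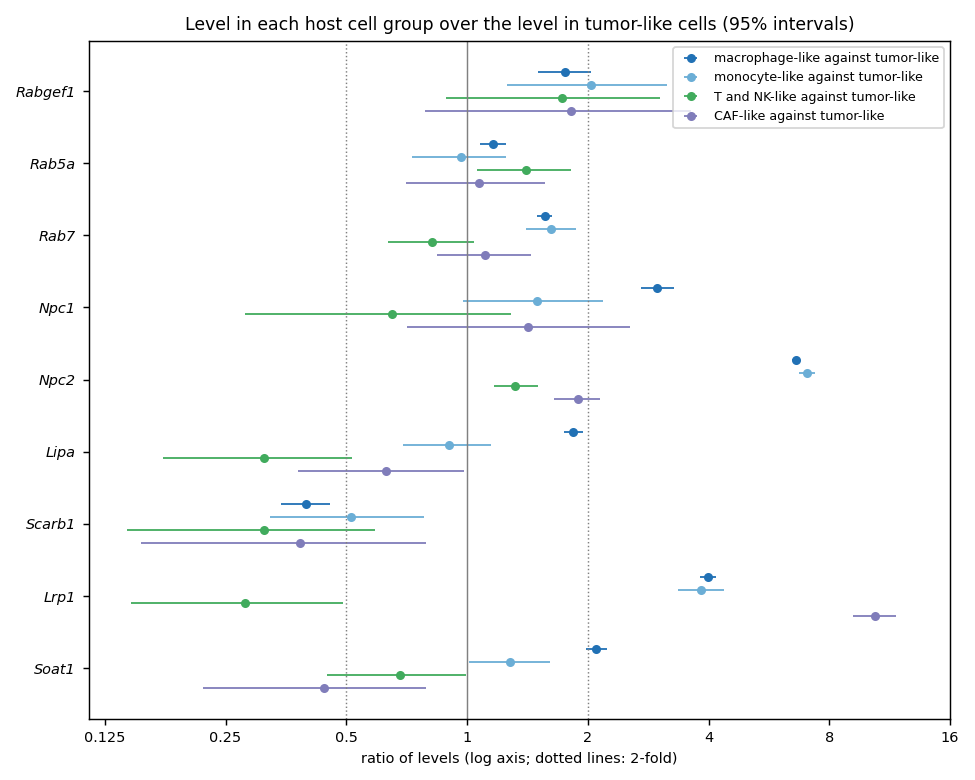
Ratio of the level of each gene in macrophage-like, monocyte-like, T and NK-like and CAF-like cells to that in tumor-like cells (log axis), with exact 95% intervals and dotted lines at 2-fold. Npc2 and Lrp1 lie beyond 2-fold in both myeloid groups, Lrp1 is at 10.4 in CAF-like and 0.28 in T and NK-like cells, and all 4 Scarb1 points lie left of 1.

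Counts per cell gave another order, because tumor-like cells held more UMIs of nearly every gene. A tumor-like cell had on average 2.19 UMIs of Lrp1, 1.48 of Scarb1, 0.356 of Rabgef1, 2.05 of Rab5a, 4.25 of Rab7, 0.629 of Npc1, 2.46 of Lipa and 2.03 of Soat1. The macrophage-like averages were 2.05 for Lrp1, 0.138 for Scarb1, 0.146 for Rabgef1, 0.558 for Rab5a, 1.55 for Rab7, 0.44 for Npc1, 1.06 for Lipa and 1 for Soat1. Npc2 alone among the 9 had more UMIs per macrophage-like cell (15.8) than per tumor-like cell (10.2). More RNA in a cell and better capture of its RNA cannot be told apart in these counts.

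The share of cells with at least 1 UMI moved with depth in the same way. Before thinning, Soat1 was seen in 65.2% of tumor-like cells (63 to 67.4, exact Clopper-Pearson interval) and 50.8% of macrophage-like cells (48.2 to 53.3). With each cell thinned to 1000 UMIs, the shares were 4.66% and 9.75%, from 1846 tumor-like and 1507 macrophage-like cells, with 20 and 18 shallower cells left out. Npc1 changed order likewise, from 40.5% and 32.6% to 1.9% and 4.98%. Npc2 was seen in 90% of tumor-like and 94.1% of macrophage-like cells before thinning and in 20.6% and 70.9% after it. Scarb1 kept its order, with 57.9% and 12.3% before thinning and 4.01% and 1.59% after. Free RNA adds to such shares. The tumor gene Rhox5 was seen in 31.6% of macrophage-like cells unthinned and 6.83% thinned, and C1qa in 65.5% and 5.58% of tumor-like cells. In their source groups these genes stood at 693 and 7696 CPM. Their shares were not scaled to the lower levels of Soat1, Npc1 and Scarb1, so they give no background value for those genes.

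**Figure D3:**
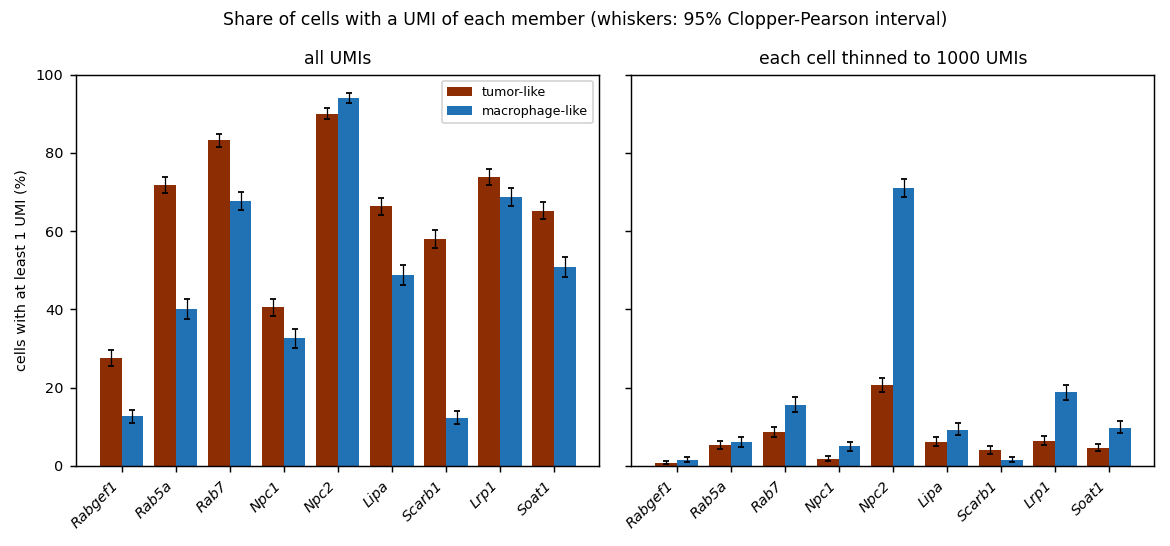
Share of tumor-like and macrophage-like cells with at least 1 UMI of each gene (%, axis from 0 to 100), with all UMIs on the left and after thinning each cell to 1000 UMIs on the right. Whiskers are exact 95% Clopper-Pearson intervals. Tumor-like bars are higher for 8 of the 9 genes on the left, and after thinning Npc2 separates the groups most (20.6% against 70.9%).

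Within the tumor-like cells, 3 clusters were formed without the 9 genes and without the other genes of the pathway lists. Cluster T1 (973 cells, median 51408 UMIs) held most Mki67, a proliferation gene, at 91.3 CPM against 39.7 and 34.3 CPM in the others. Cluster T2 (589 cells) had the most Col3a1, at 2667 CPM. Cluster T3 (304 cells) stood apart in RNA quality, with a median of 0.16% mitochondrial UMIs against 3.316% and 2.988%, and with the nuclear RNA Malat1 at 282 CPM against 2850 and 9521 CPM. Muscle genes led its list of raised genes, but 174 of its 175 UMIs of Acta1 came from 1 cell, while Rhox5 was seen in 280 of its 304 cells.

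All 9 genes except Soat1 were highest in T2, the Col3a1-rich tumor-like cluster. Lrp1 had 92.5 CPM (87.8 to 97.3) there, 45.3 CPM (43.5 to 47.2) in T1 and 30.1 CPM (26.7 to 33.8) in T3. Lipa had 105 CPM (100 to 110), 49.4 CPM (47.5 to 51.3) and 39.1 CPM (35.2 to 43.3) in the same order. These were the genes in which T2 stood farthest above T1. Npc2 varied less, with 228 CPM (224 to 233), 315 CPM (306 to 324) and 236 CPM (227 to 246) in T1, T2 and T3, and Rab7 had 102, 110 and 96.2 CPM. Cluster T3 had the lowest level of 8 of the 9 genes, Npc2 being the exception. These included Npc1 at 6.6 CPM (5.07 to 8.45) against 15 and 21.2 CPM, and Soat1 at 28.9 CPM against 53.4 and 47.7 CPM. Its low mitochondrial and Malat1 content moved with these values, and their part was not tested. Without that cluster the tumor-like levels were 56.4 CPM for Lrp1, 16.5 CPM for Npc1, 52 CPM for Soat1 and 249 CPM for Npc2.

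Macrophage-like cells fell into 6 clusters, numbered M1 to M6 by size. Among the leading genes were Cxcl2 and Cd83 in M1 (519 cells), Lyz1 and Ear2 in M2 (474 cells) and, in M3 (215 cells), interferon-induced genes such as Ifit2 and Slfn4. Cluster M4 (185 cells) had Mki67 at 485 CPM. Cluster M5 (110 cells) was led by the proteases Mmp12 and Mmp13 and by Atp6v0d2, a subunit of the proton pump that acidifies lysosomes. Cluster M6 (22 cells) was led by Retnla, Cd163 and Lyve1, genes known from resident tissue macrophages.

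Cluster M5, marked by Mmp12 and Atp6v0d2, held the most Npc2, Lipa and Soat1. Npc2 stood at 2748 CPM (2658 to 2840) there and between 1159 and 1684 CPM in the other clusters. Lipa had 207 CPM (183 to 234) in it and 76.5 to 123 CPM elsewhere, and Soat1 had 198 CPM (174 to 224) and 86.1 to 110 CPM. Lipa, Npc2 and Soat1 thus had their highest levels, summed over cells, in the same cluster of 110 cells. Npc1, to which Npc2 hands cholesterol, had 50.6 CPM (39.1 to 64.5) in M5. Cluster M5 had a median of 1.122% mitochondrial UMIs, the lowest of the 6. Cluster M6 had the most Npc1, at 142 CPM (88.1 to 218) from 21 UMIs against 39.9 to 50.6 CPM, and the most Rab7, at 291 CPM (211 to 393) from 43 UMIs. Cluster M4, rich in Mki67, had the lowest point values for Rab7, Npc1, Lipa, Lrp1 and Soat1. Lrp1 was at 153 CPM (139 to 169) there, against 193 to 244 CPM. For each of these genes the M4 interval overlapped that of M3, which for Lrp1 was 167 to 221 CPM.

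The levels of 5 genes, Rab7, Npc1, Npc2, Lrp1 and Soat1, were higher in each of the 6 macrophage-like clusters than in any of the 3 tumor-like clusters, and that of Scarb1 was lower in each. Such separation was found for 15.7% of the 13082 genes in the first direction and 23.8% in the second. Lipa, Rab5a and Rabgef1 overlapped between the clusters of these 2 cell groups. For Lipa this came from the Col3a1-rich tumor-like cluster, whose 105 CPM lay within the macrophage-like range. Clusters of 1 library are not replicates, and these values describe how the genes vary among cells of the pool.

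**Figure D4:**
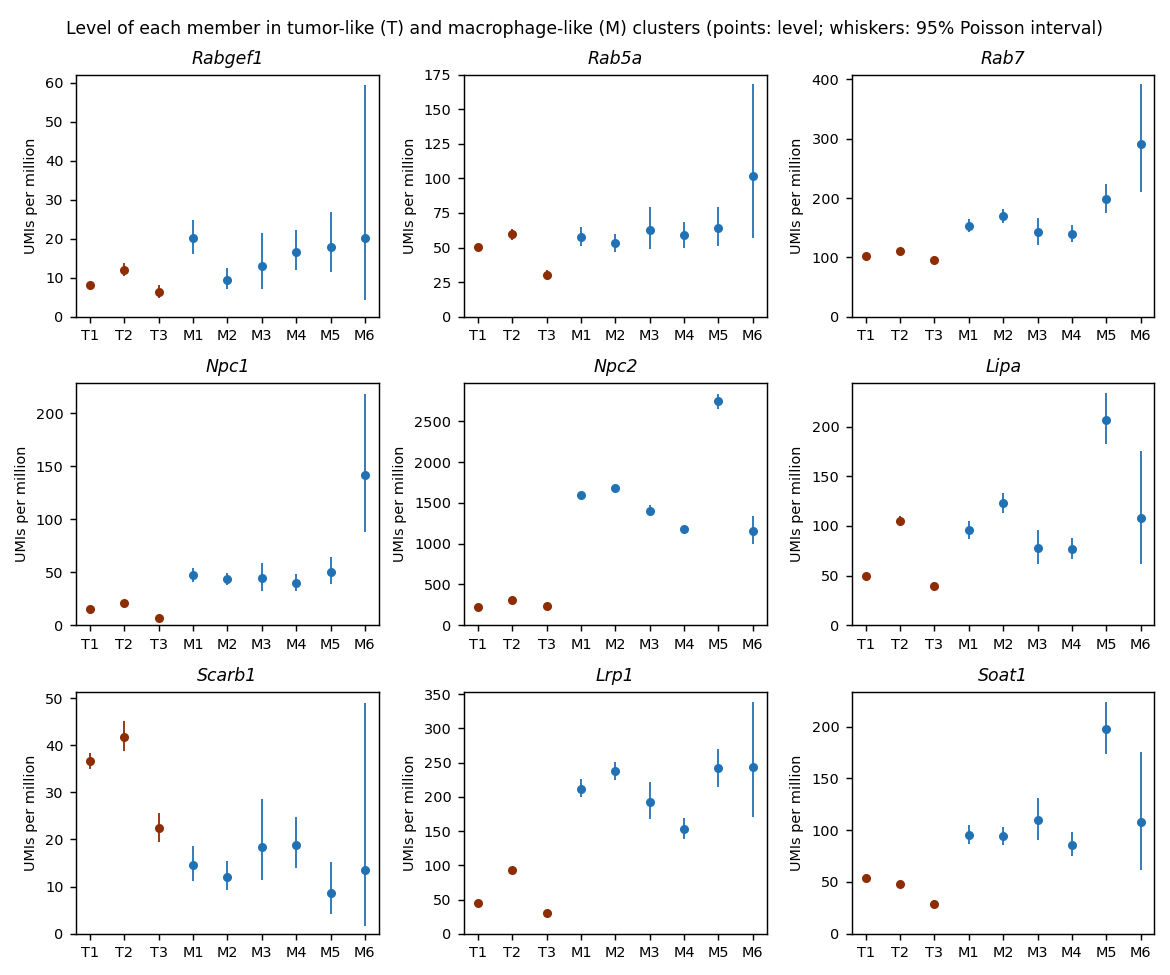
Level of each gene (UMIs per 1000000 UMIs, axes from 0) in the 3 tumor-like clusters (T1 to T3) and 6 macrophage-like clusters (M1 to M6), with exact 95% Poisson intervals. Npc2, Lipa and Soat1 peak in M5 (2748, 207 and 198 CPM), and Lrp1 and Lipa are higher in T2 than in T1 and T3.

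Other genes of uptake differed in both directions. Of 17 lipoprotein receptors and their regulators, 14 reached the minimum of expected UMIs. Of these, 8 were at least 2-fold higher and 4 at least 2-fold lower in macrophage-like than in tumor-like cells. For all 13082 genes these shares were 20.4% and 27.8%. The scavenger receptors Msr1 (205 against 1.14 CPM), Cd36 (20.5 against 0.143 CPM) and Stab1 (190 against 3.99 CPM) and the sorting receptor Sorl1 (17.8 against 0.247 CPM) had the largest ratios. The VLDL receptor Vldlr was lower, at 1.02 against 10.4 CPM. Scarb1 and Vldlr were thus higher in tumor-like cells, while Lrp1 and these scavenger receptors were higher in macrophage-like cells.

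The shares of all genes past 2-fold, 20.4% higher and 27.8% lower, are also the background for the lists that follow. Of the 18 genes of the early endosome list, 5 were at least 2-fold higher and 1 at least 2-fold lower in macrophage-like cells, with a median log2 ratio of 0.27. Rin2 (6.11-fold), Appl2 (2.38-fold), Rin3 (2.3-fold) and Pik3c3 (2.28-fold) led it, and Rin1 was at a ratio of 0.194 (0.14 to 0.262). Rin1, Rin2 and Rin3 are exchange factors for Rab5, as Rabgef1 is. Of the 16 genes of Rab7 activation and the tethering complexes HOPS and CORVET, 9 were at least 2-fold higher and none at least 2-fold lower, with a median of 1.13. Rab7b (91.9 against 14.7 CPM), the HOPS subunits Vps18 (25.1 against 5.25 CPM) and Vps11 (24 against 8.74 CPM) and the Rab7 regulator Tbc1d5 (26.8 against 7.78 CPM) were the highest by ratio, and Ccz1, part of the exchange factor for Rab7, was the lowest at 0.969. Of 16 recycling and retromer genes, 3 were higher by at least 2-fold, namely Snx1, Snx2 and Ccdc22, and 2 lower, namely Rab4a (0.289) and Commd1 (0.434).

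The lysosomal hydrolases were the list with the largest shift. Of 22 genes, 17 were at least 2-fold higher and 1 at least 2-fold lower in macrophage-like than in tumor-like cells, with a median log2 ratio of 2.44. Ctss (4886 against 24.1 CPM), Ctsc (1501 against 7.4 CPM), Lgmn (1466 against 29.6 CPM) and Man2b1 (361 against 28.6 CPM) had the largest ratios. Ctsl went the other way, with 627 CPM in macrophage-like and 1722 CPM in tumor-like cells, a ratio of 0.364 (0.357 to 0.372), and Gaa had a ratio of 0.564. Lipa, at 1.84-fold, stayed under the fold that most of these hydrolases passed. Among 19 genes of the lysosomal membrane and of sterol transfer, 18 were measured, of which 6 were at least 2-fold higher, led by Laptm5 (171-fold) and the sterol transfer gene Gramd1b (6.68-fold), and 2 were lower, Osbpl5 (0.19) and Tmem97 (0.203), a protein that binds Npc1. Of 14 genes of ester storage and hydrolysis, 9 were measured, 5 were higher by at least 2-fold and 1 lower. They included the neutral esterases Lipe (12.5-fold, 9.75 to 16.2) and Nceh1 (2.42-fold, 2.2 to 2.65) and the lipid droplet gene Hilpda (2.49-fold), and the lower gene was G0s2, with 3 UMIs in macrophage-like cells and a ratio of 0.402 (0.0794 to 1.26).

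**Figure D5:**
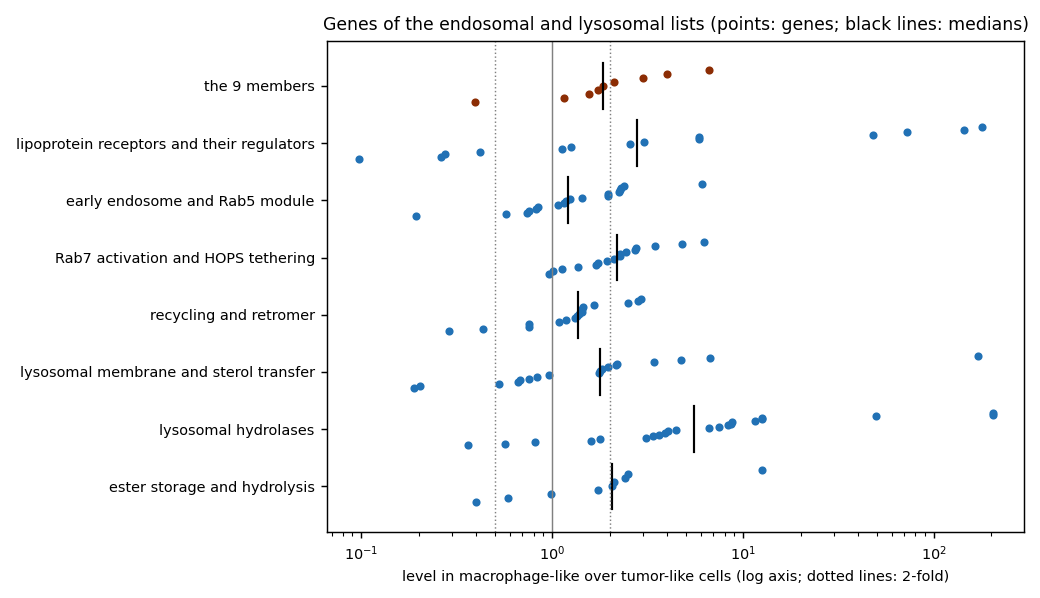
Ratio of the level in macrophage-like to that in tumor-like cells (log axis) for the measured genes of each list, 1 point a gene, with black lines at the list medians and dotted lines at 2-fold. Lysosomal hydrolases have the highest median (2.44 on the log2 scale) and the early endosome list the lowest (0.27).

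In T and NK-like cells, where 11% of all genes were at least 2-fold higher and 26.7% lower, the lists were counted in the same way. At least 2-fold higher than in tumor-like cells were 1 of 8 receptor genes, 1 of 16 early endosome genes, none of 9 Rab7 and tethering genes, none of 16 recycling genes, 2 of 16 membrane and sterol transfer genes, 5 of 21 hydrolases and 1 of 6 storage genes. Lrp10 (4.57-fold), Rin3 (3.05-fold), Laptm5 (123-fold) and Ctsc (15.4-fold) were the highest of their lists, and Tmem97 (0.148), Ctsl (0.102) and Plin3 (0.267) the lowest of theirs. At least 2-fold lower were 4, 3, 1, 2, 5, 5 and 3 genes in the same order of lists. In CAF-like cells, beside 12.4% and 15% of all genes, the genes at least 2-fold higher numbered 1 of 7, 1 of 12, 1 of 5, none of 15, 3 of 14, 5 of 20 and none of 6, and those at least 2-fold lower 2, none, none, 1, 1, 1 and 1. There, Lrp6 (2.26-fold) and Lamp2 (3.49-fold) were the highest of the receptor and membrane lists and Vps41 (2.25-fold) of the Rab7 list. Nceh1 had no UMI there, which against 18.9 CPM in tumor-like cells was at least 3.2-fold lower at the limit of 3 counts over the group.

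Genes with a pattern most like that of each member were sought over 16 clusters with at least 50000 UMIs, among 9338 genes with at least 500 UMIs. The measure was Pearson's r of log2(CPM + 1), given as a description, since the clusters share 1 library and differ in depth. Npc2 was closest to Ctsa (r = 0.943), Hk3 (0.935) and Scp2 (0.931), and Soat1 to Rnf149 (0.887), Ctsa (0.886) and Dnase1l1 (0.875). Lipa was closest to Plin2 (0.870), the coat protein of lipid droplets, Eid1 (0.852) and Atp6v1a (0.836). Npc1 was closest to Sgpl1 (0.948), Mfsd1 (0.935) and Fnip1 (0.929), and Lrp1 to C4b (0.886), Itgb5 (0.883) and Runx1 (0.862). Scarb1 was closest to Egfl7 (0.932), Tmem183a (0.910) and Tmem88 (0.895). Among the 16 clusters Scarb1 was highest in the shallow vessel-gene cluster, at 167 CPM from 22 UMIs, and next highest in T2 at 41.8 CPM. Rabgef1 was also highest in the vessel-gene cluster, at 30.3 CPM from 4 UMIs. The part of that cluster in these likenesses was not tested. Rabgef1 was closest to Elmsan1 (0.849), Mylip (0.839) and Junb (0.832), Rab5a to Hook3 (0.937), Macf1 (0.915) and Slc30a9 (0.906), and Rab7 to Ccl6 (0.940), F13a1 (0.934) and Wfdc17 (0.905). Ctsa was among the 3 closest genes of both Npc2 and Soat1.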

How the data were processed

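The deposited table holds raw UMI counts, with a value for each gene in each called cell, made by the authors with Cell Ranger (version 5.0.1 per the file headers) on GRCm38/mm10. Depth was 511 to 231902 UMIs a cell. Cells with under 200 genes (0 cells) or over 20% mitochondrial UMIs (667 cells) were left out, and 172 cells with the highest simulated-doublet scores were removed. The members and pathway-list genes (131) were kept out of the 2000 variable genes, and 30 principal components, 20 neighbors and Leiden resolution 0.5 gave the clusters. A cluster was named when at least 3 marker genes had at least 5 UMIs and 2 times the level of a reference, with further conditions given below. Under the rule as first written, with all other cells as reference, the tumor clusters stayed unnamed. The references were then changed, after the clusters had been seen: myeloid-like cells for tumor-like clusters, which also needed Shisal2b and Rhox5, and non-myeloid cells for macrophage-like ones. The rule as used also asked a cluster with a median under 3506.2 UMIs for a gene of its list among its 10 leading genes. Cells left over were clustered again, and of these a cluster with Shisal2b and Rhox5 both raised over myeloid-like cells got no name. These conditions left clusters with 7 endothelial, 6 myeloid and 4 CAF markers raised without a name, at medians of 728.5, 1388 and 622 UMIs. Names may differ from those of the study. The members and lists were chosen with earlier results of these data known. Named list genes had the largest and smallest ratios, and some are not reported here. No test was run. Ratios are of summed counts, with exact intervals. These were checked only on simulated Poisson counts, the model that the intervals assume, so spread between cells or mice was not checked. Alternatives are given at the end. Python 3.11.15, numpy 2.4.6, scipy 1.17.1, scikit-learn 1.9.0, igraph 0.11.9 and leidenalg 0.10.2 were used.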

Additional observations from a re-analysis of the deposited data

How the results depend on the processing

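Counts of genes past 2-fold kept within 1.5 times in 161 of 200 recomputed cases and moved in 39. Against tumor-like cells, the macrophage-like count of 4 higher became 7 at a fold of 1.5 and 2 at a fold of 3. The count of 1 lower became 0 at a fold of 3 and with single markers. Of all genes, 27.6% were higher and 39.5% lower at a fold of 1.5, and 14.5% and 17.2% at a fold of 3. The monocyte-like count of 0 lower became 1, which was Scarb1, with more variable genes, pathway genes among the variable genes, 20 principal components, 10 neighbors, another seed, averaged cell CPM, thinning, ambient subtraction, a fold of 1.5, or without the low-mitochondrial tumor-like cluster (added after seeing the data). At a fold of 1.5, 46.2% of all genes were lower in monocyte-like cells. The T and NK-like count of 0 higher became 1, which was Rabgef1, with thinning (seen in 4 of 130 cells) or a fold of 1.5. Its 3 lower became 1 with single markers. At a fold of 1.5, 19.7% of all genes were higher in T and NK-like and 23% in CAF-like cells. The CAF-like count of 1 higher became 2 with doublets kept, pathway genes among the variable genes, resolution 0.3 or 1.0, 20 principal components, 10 neighbors, another seed, single markers or a fold of 1.5. Its 2 lower became 1 with averaged cell CPM, thinning or at least 20 expected UMIs, and 0 with single markers or a fold of 3. Of all genes, 16.7% were lower in CAF-like cells with at least 20 expected UMIs, and 5.41% at a fold of 3. Scarb1 reversed in CAF-like against tumor-like cells with single markers, to a ratio of 2.01. That setting kept 198 tumor-like cells and took 550 cells with Col5a1 as fibroblasts. Col5a1 also stood at 152 CPM in the main tumor-like cells, so the 550 cells can include tumor cells. The macrophage-like against monocyte-like count of 2 higher became 1 with doublets kept, pathway genes among the variable genes or averaged cell CPM, and 0 with 10 neighbors, another seed, single markers, median-of-ratios scaling or a fold of 3. At a fold of 3, 3.72% of all genes were higher in macrophage-like than in monocyte-like cells. The cause of these shifts was not tested. No CAF-like group was found at 10% mitochondrial UMIs or at least 500 genes, and no monocyte-like group without a mitochondrial limit. After thinning, Npc1, Scarb1 and Soat1 had no UMI in CAF-like cells and gave no ratio. No paired analysis was possible because there was 1 library.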

Other observations

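The 41 DC-like cells, which entered no comparison, had little Lrp1 and Npc1. Lrp1 stood at 25.6 CPM (12.8 to 45.8, exact Poisson interval) and Npc1 at 9.31 CPM (2.54 to 23.8, from 4 UMIs), against 212 and 45.5 CPM in macrophage-like cells. Npc2 was at 649 CPM (575 to 730), between the CAF-like and macrophage-like levels, and Rab7 at 161 CPM (125 to 203). Lipa had 34.9 CPM (19.5 to 57.6) and Soat1 48.9 CPM (30.3 to 74.7).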
